A study of Mus musculus with 16 samples.

Results

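The short-term response of beta cells to BayK8644 was read on 4 arrays of cells taken 30 min after treatment, out of 16 arrays in the series. In 2 of these cultures BayK8644 was present, once alone and once together with exendin-4 (the combination). In the other 2 it was absent, and the cells had received exendin-4 alone or the DMSO vehicle. The arrays were chosen by their titles. A gene is described only where both differences, BayK8644 minus DMSO and combination minus exendin-4, had the same sign. Cell-type markers and genes too dim to be measured are given whatever their signs. The cells were R7T1, a mouse pancreatic beta-cell line, and 1 line cannot stand for islet cells in a tissue. The compound is listed as BayK8644(2a), the labels explain neither the 2a nor the dose. No treatment had a second array at this time, and nothing in the labels ties an array to a culture of its own. The error was therefore pooled over all 16 arrays, and it measures how far the effects of the 2 agents departed from adding up. Technical variation and a true departure cannot be told apart in it. The p-values below measure no more than this.

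BayK8644 is a dihydropyridine agonist of L-type voltage-gated calcium channels, which prolongs their opening. Exendin-4 acts on the GLP-1 receptor, whose signal raises cAMP. Calcium entering a beta cell activates calmodulin-dependent kinases and the MAP kinase cascade, which phosphorylate transcription factors already present on DNA, among them CREB and the partners of serum response factor (SRF). The genes these factors switch on first, without new protein synthesis, are called immediate-early genes. Many encode transcription factors, and others encode proteins that damp the signal again, such as phosphatases of the MAP kinases.

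Levels are log2 values of GCRMA intensity, and 10610 genes were tested. Median linear intensity over all probe sets was 10.76 with BayK8644 and 10.97 with the combination, against 10.94 with DMSO and 10.78 with exendin-4. These medians lie under intensity 16 (log2 4), the level used to filter genes. As a sign of RNA integrity, 3' probe sets of Actb exceeded the 5' one by between 0.60 and 0.67 on the log2 scale. The beta-cell label was borne out by most of its markers, of which 21 of 23 on the array exceeded log2 4 on each of the 4 arrays. Ins2 (insulin) lay between 15.60 and 15.69, Pdx1 between 13.33 and 13.40 and Nkx6-1 between 12.27 and 12.52. Slc2a2 was lower, at 7.24 to 7.92, and Ucn3 was near the floor at 2.87 to 2.93. Glp1r, the receptor of exendin-4, read 2.06 to 2.07, too close to the floor to be measured. Of the 10 mesenchymal, endothelial and leukocyte markers 1 or 2 exceeded log2 4 on each array, Vim in each case, while Ptprc, Cd68, Pecam1 and Cdh5 stood between 1.88 and 2.16. The summed log2 level of that marker list was 32.3 and 32.8 with BayK8644 and the combination, against 32.8 and 32.5 with DMSO and exendin-4. The alpha-cell hormone gene Gcg (9.59 to 9.70) and Ttr (16.31 to 16.35) were expressed on all 4 arrays and did not differ by more than 0.11 between them. Irx2, another alpha-cell marker, read 4.87 with BayK8644 and 4.32 with the combination, against 4.19 with DMSO and 4.53 with exendin-4. The acinar marker Cela1 lay between 9.30 and 9.45, and Cpa1, which marks the same cells, between 2.12 and 2.13.

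Within 30 min 23 genes rose with BayK8644, which is 0.217% of the genes tested, and 0 fell (limma, adjusted p under 0.05, 0% of genes). Transcription factor genes led, with Egr2, Fosb, Egr1, Fos, Npas4 and Nr4a1 up by between 5.93 and 23.6-fold. Behind them came genes of signal damping, among them Spry1, Dusp1, Dusp6 and Dusp4, and the RNA decay regulators Btg2 and Tob2. The median effect of the 23 was 1.01 on the log2 scale (2.01-fold), and the smallest was that of Jun at 0.43. At an unadjusted p under 0.05 there were 166 genes higher and 52 lower. Together these were 218 of the 10610 genes tested, a smaller share than the 0.05 that such a threshold passes where no gene differs. All effects below are the mean of the 2 arrays with BayK8644 minus the mean of the 2 without it, with limma's standard error (SE).

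**Figure D1:**
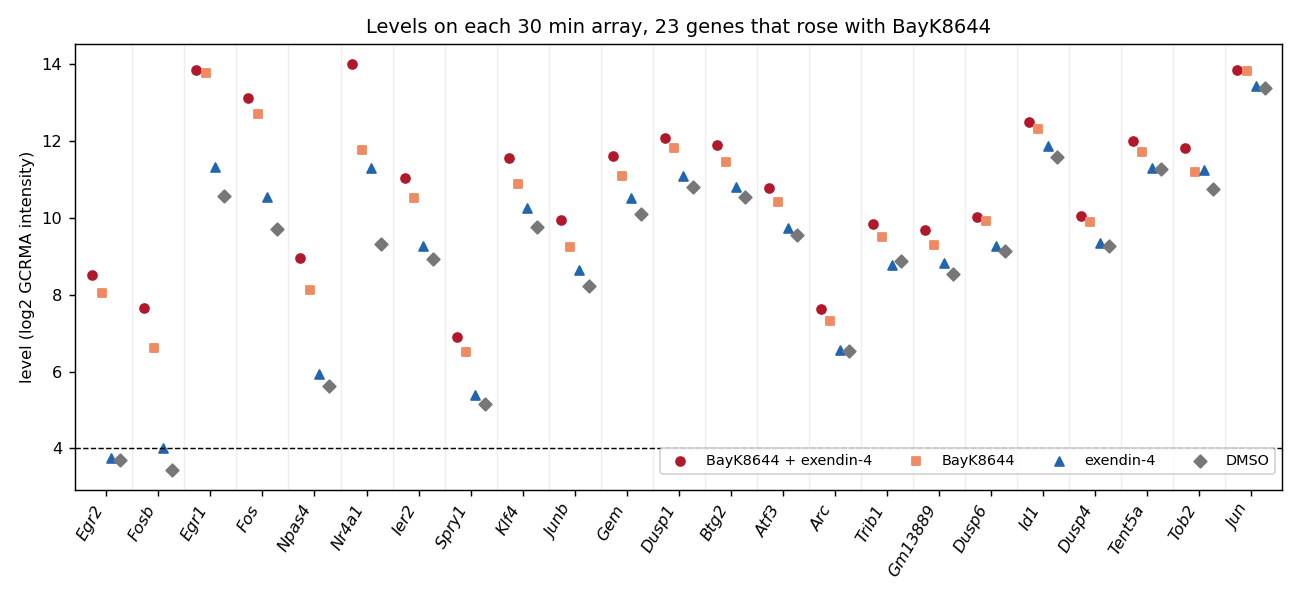
Log2 GCRMA intensity (vertical axis) of the 23 genes that rose, 1 point for each of the 4 arrays of 30 min, ordered by effect. The dashed line marks log2 4. The combination array is the highest of the 4 for all 23 genes, to which their choice for high values with BayK8644 contributes. The share over all genes was not computed. For Tob2 the BayK8644 array (11.18) lies below the exendin-4 array (11.25).

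The promoters of 6 of these transcription factor genes are shown first, since they hold the short elements through which calcium and cAMP signals are known to act. Each is the stretch of 250 bases before a transcript start from RefSeq, build GRCm38.p6, read 5′ to 3′ on the gene's strand. Capitals mark the CRE core TGACG, bound by CREB (in either orientation, so also CGTCA), the CArG box bound by SRF, and the Egr site GCGNGGGCG in either orientation.
Egr2, chr10:67537619-67537868, plus strand: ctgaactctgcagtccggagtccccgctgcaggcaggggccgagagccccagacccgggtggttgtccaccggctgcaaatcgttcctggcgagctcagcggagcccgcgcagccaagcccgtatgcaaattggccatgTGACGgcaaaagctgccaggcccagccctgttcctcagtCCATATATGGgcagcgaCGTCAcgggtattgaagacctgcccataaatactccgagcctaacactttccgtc
Fos, chr12:85473640-85473889, plus strand: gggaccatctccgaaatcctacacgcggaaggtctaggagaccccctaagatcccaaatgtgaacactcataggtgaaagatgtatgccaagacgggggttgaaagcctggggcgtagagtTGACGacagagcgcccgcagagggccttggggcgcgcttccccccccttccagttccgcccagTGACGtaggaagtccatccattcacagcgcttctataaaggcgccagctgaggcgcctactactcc
Fosb, chr7:19310046-19310295, minus strand: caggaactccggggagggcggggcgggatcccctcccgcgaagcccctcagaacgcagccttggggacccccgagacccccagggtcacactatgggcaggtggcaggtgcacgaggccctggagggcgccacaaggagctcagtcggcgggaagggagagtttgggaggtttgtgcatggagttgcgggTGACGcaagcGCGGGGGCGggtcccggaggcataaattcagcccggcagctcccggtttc
Junb, chr8:84978749-84978998, minus strand: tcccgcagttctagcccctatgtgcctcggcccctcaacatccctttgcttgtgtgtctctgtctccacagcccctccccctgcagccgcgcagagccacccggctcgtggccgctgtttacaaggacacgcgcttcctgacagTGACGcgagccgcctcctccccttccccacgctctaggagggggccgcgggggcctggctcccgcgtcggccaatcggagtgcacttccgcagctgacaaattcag
Npas4, chr19:4989972-4990221, minus strand: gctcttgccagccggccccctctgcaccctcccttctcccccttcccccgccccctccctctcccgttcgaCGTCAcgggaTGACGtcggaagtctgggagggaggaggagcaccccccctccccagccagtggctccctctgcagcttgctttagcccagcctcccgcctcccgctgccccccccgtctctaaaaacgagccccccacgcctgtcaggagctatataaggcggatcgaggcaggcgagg
Nr4a1, chr15:101266596-101266845, plus strand: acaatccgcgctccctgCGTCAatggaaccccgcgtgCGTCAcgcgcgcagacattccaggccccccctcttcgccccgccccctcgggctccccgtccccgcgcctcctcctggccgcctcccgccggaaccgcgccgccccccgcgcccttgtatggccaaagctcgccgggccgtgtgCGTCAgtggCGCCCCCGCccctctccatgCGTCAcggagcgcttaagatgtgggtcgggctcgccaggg

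A RefSeq promoter was found for 15 of the 23 genes, and Arc, Dusp4, Egr1, Gem, Gm13889, Id1, Ier2 and Trib1 had none in the table. A CRE core lay in the promoter of 10 of the 15 (66.7%), against 32.3% of the 8698 tested genes with a promoter. The Fos promoter held it at 129 and 66 bases before the start, that of Npas4 at 179 and 169, and that of Nr4a1 at 4 places. The full palindrome TGACGTCA, which contains the core on both strands, was in the promoters of Btg2 and Dusp1 (13.3%), against 3.22% of tested genes. The CArG box stood in 1 of the 15, Egr2, 72 bases before the start shown, against 1.37% of tested genes. The Egr site GCGNGGGCG was found in Btg2, Fosb, Klf4, Nr4a1 and Tent5a (33.3%), against 11.1%, and the AP-1 site TGANTCA in 0 of the 15, against 4.84%. The promoters of Dusp6, Jun, Spry1 and Tob2 held none of these sites, nor did the Egr2 stretch chr10:67535249-67535498. Genes with several starts, such as Egr2, had more bases searched (20 promoters for 15 genes, and 11188 for 8698). A match is a description of letters in this window.

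Egr2, a zinc finger transcription factor of the early growth response family, had the largest effect of the 23. It read 8.05 with BayK8644 and 8.51 with the combination, against 3.69 with DMSO and 3.75 with exendin-4. Both arrays without BayK8644 were under log2 4, close to the background floor, and the effect was 4.56 ± 0.16 (23.6-fold, adjusted p = 1.33e-06). With values under log2 4 set to 4 it was 4.28 (19.4-fold). A further probe set of Egr2 differed by 4.34 and 5.50 in the 2 pairs of arrays. Egr1, its relative and a widely used marker of MAP kinase activity, was already well expressed and stood at 13.76 with BayK8644 and 13.85 with the combination, against 10.56 with DMSO and 11.31 with exendin-4 (effect 2.87 ± 0.13, 7.31-fold, adjusted p = 1.12e-05). The 2 arrays with the compound were nearly level for Egr1, while exendin-4 alone was 0.76 above DMSO. Nab2 and Nab1, corepressors that bind Egr proteins, did not pass, with effects of 0.21 and 0.05, and Egr3 was near the floor at 2.57 to 2.60. Thus 2 of the 4 measured genes of the Egr and Nab list rose and 0 fell, against 0.217% and 0% of all genes tested. The lists here and below were chosen with earlier results of these data known, which contributes to such counts.

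AP-1 is a dimer of Fos and Jun family proteins. Of its 10 measured genes 5 rose and 0 fell, against 0.217% and 0% of all genes tested. The median effect of the list was 0.87, against 0.01 over all genes tested. Fos read 12.69 with BayK8644 and 13.13 with the combination, against 9.72 with DMSO and 10.54 with exendin-4, so the pairs were apart by 2.97 and 2.59 (effect 2.78 ± 0.10, 6.88-fold, adjusted p = 1.33e-06). Fosb, a second Fos family gene, stood at 6.60 with BayK8644 and 7.66 with the combination, against 3.45 with DMSO and 4.0 with exendin-4 (effect 3.40 ± 0.31, adjusted p = 0.00163). Its levels without BayK8644 lay at or under log2 4, and with values set to at least 4 the effect was 3.13. Among their partners Junb rose by 1.14 ± 0.13, with readings of 9.24 with BayK8644 and 9.94 with the combination, against 8.24 with DMSO and 8.66 with exendin-4. Jun had the smallest effect of the 23 genes that rose, at 13.83 with BayK8644 and 13.85 with the combination, against 13.38 with DMSO and 13.43 with exendin-4 (effect 0.43 ± 0.06, adjusted p = 0.0369). Atf3, a stress-responsive partner of Jun, rose by 0.96 ± 0.10. Fosl2 had an effect of 1.30 ± 0.26 that did not pass (adjusted p = 0.226), and its reading of 5.37 with BayK8644 was below the 6.09 of exendin-4. Maff (0.78, adjusted p = 0.0848), Mafg, Jund and Mafk (0.09 to 0.19) did not pass.

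The Nr4a genes encode orphan nuclear receptors that are switched on by calcium and by cAMP. Nr4a1 responded to both agents. It read 11.75 with BayK8644 and 14.00 with the combination, against 9.31 with DMSO and 11.31 with exendin-4, so that each agent alone stood above DMSO and both together were highest. The BayK8644 effect was 2.57 ± 0.08 (5.93-fold, adjusted p = 1.33e-06). Nr4a1 was also the 1 gene called for exendin-4 at this time (adjusted p = 8.61e-06, 0.00943% of genes tested). Nr4a3 showed another pattern, at 4.63 with BayK8644 and 7.54 with the combination, against 4.26 with DMSO and 4.64 with exendin-4. Its differences of 0.37 and 2.90 were unequal, which enlarges the error, and the effect of 1.64 ± 0.45 did not pass (adjusted p = 0.985). Nr4a2 differed by 0.27 and 0.81 and did not pass either.

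Of 18 other measured early response transcription factor genes 4 rose and 0 fell, against 0.217% and 0% of all genes tested. Npas4, which is known in neurons as a factor that responds to calcium entry and to few other signals, read 8.12 with BayK8644 and 8.94 with the combination, against 5.61 with DMSO and 5.94 with exendin-4 (effect 2.75 ± 0.28, 6.74-fold, adjusted p = 0.00381). Ier2, an immediate-early gene, stood at 10.53 with BayK8644 and 11.05 with the combination, against 8.94 with DMSO and 9.26 with exendin-4 (effect 1.69 ± 0.11). Klf4, a Kruppel-like factor linked to growth arrest, read 10.88 with BayK8644 and 11.56 with the combination, against 9.77 with DMSO and 10.25 with exendin-4 (effect 1.21 ± 0.09). For these genes both arrays with BayK8644 exceeded both without it, as they did for 19.0% of all genes tested. Id1, which encodes an inhibitor of basic helix-loop-helix factors, rose by 0.68 ± 0.09. Nfil3 (0.54), Srf (0.45), Bhlhe40 (0.44) and Myc (0.30 ± 0.18) had positive differences in both pairs that did not pass, and the list median was 0.23.

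Some genes of proteins that restrain MAP kinase signalling had risen at 30 min. Of 10 measured MAP kinase phosphatase genes 3 rose and 0 fell, against 0.217% and 0% of all genes tested. Dusp1, a nuclear phosphatase of several MAP kinases, read 11.82 with BayK8644 and 12.08 with the combination, against 10.81 with DMSO and 11.08 with exendin-4, a difference of 1.02 and 1.0 in the 2 pairs (effect 1.01 ± 0.08, adjusted p = 0.000641). Dusp6, which acts on ERK in the cytoplasm, differed by 0.77 in each pair, and Dusp4 by 0.62 and 0.69 (effects 0.77 ± 0.09 and 0.66 ± 0.09). Dusp5 and Dusp10 stood 0.28 higher on average and did not pass. Spry1, an inhibitor of receptor tyrosine kinase signalling, read 6.52 with BayK8644 and 6.89 with the combination, against 5.16 with DMSO and 5.40 with exendin-4 (effect 1.42 ± 0.14, adjusted p = 0.00381). The pseudokinase gene Trib1 rose by 0.84 ± 0.12, and these were the 2 of 14 further feedback genes that rose, with 0 down. Rgs4 (1.37 ± 0.39) and Ier3 (1.03 ± 0.24) had larger effects than Trib1 that did not pass (adjusted p = 1 and 0.462).

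Btg2 and Tob2 belong to an antiproliferative family that brings the deadenylase complex to messages. Btg2 read 11.45 with BayK8644 and 11.90 with the combination, against 10.55 with DMSO and 10.81 with exendin-4 (effect 1.0 ± 0.11, adjusted p = 0.00458). Tob2 rose by 0.51 ± 0.08 and was the 1 gene of the 23 whose arrays overlapped. Over all genes tested both arrays with BayK8644 exceeded both without it for 19.0%. Btg2 and Tob2 were 2 of 10 measured genes of RNA decay and translation brakes, of which 0 fell. Of all genes tested 0.217% rose and 0% fell. Socs3 (0.50), Zfp36 (0.47) and Tob1 (0.40) did not pass. Gem, a small GTPase that restrains L-type calcium channels at the membrane, read 11.09 with BayK8644 and 11.62 with the combination, against 10.11 with DMSO and 10.52 with exendin-4 (effect 1.04 ± 0.07, adjusted p = 0.000188). Its relatives Rrad, which was under log2 4 on all 4 arrays, and Rasd1, Rhob and Rnd3 did not pass, with effects of 0.10 to 0.25. Tent5a, listed as Fam46a and a cytoplasmic poly(A) polymerase, rose by 0.59 ± 0.07, and with Gem made 2 of 20 measured CREB and cAMP targets, of which 0 fell. Others of that list did not pass, among them Irs2 (0.61 ± 0.15), Per1 (0.38 ± 0.10), Vgf (0.30 ± 0.08) and Pde4b (-0.24). Arc, a cytoskeletal immediate-early gene of neurons, rose by 0.91 ± 0.13 and was the 1 of 8 measured SRF and MRTF targets to do so, with Actb at 0.06 and Flna at 0.09. Gm13889, which the lists did not hold, rose by 0.82 ± 0.10.

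**Figure D2:**
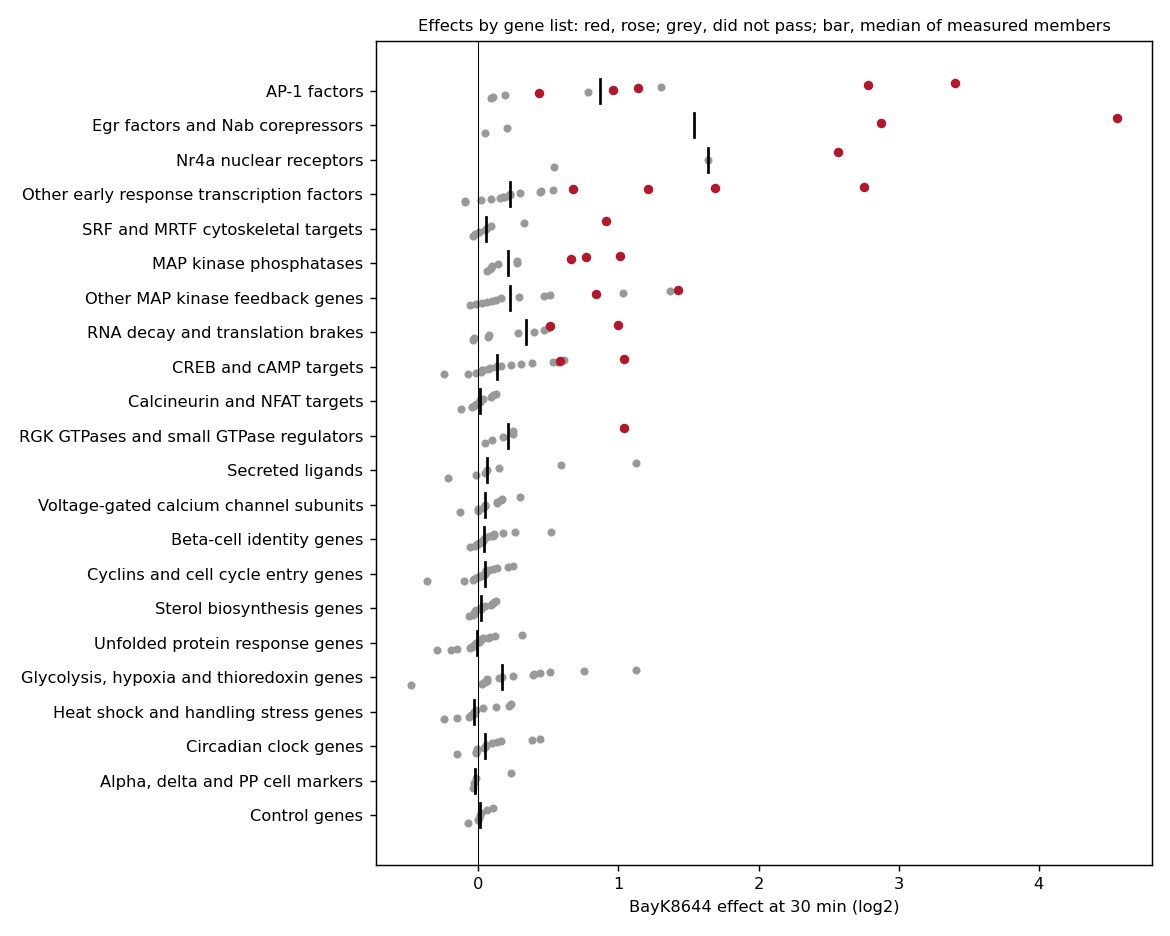
Effect of BayK8644 at 30 min (log2, horizontal axis) for each measured member of the gene lists with at least 3 measured members. Red points rose, grey points did not pass and bars mark medians. The 3 lists with the highest medians are the Nr4a, Egr and AP-1 lists, at 1.64, 1.54 and 0.87. The Nr4a list has 3 measured genes, and its median is the effect of Nr4a3, which did not pass. The Egr list has 4 measured genes.

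Several groups held 0 genes that passed in either direction, where 0.217% of all genes tested rose and 0% fell. None of 10 calcineurin and NFAT genes passed (median 0.01), and Rcan1, a widely used readout of calcineurin, had an effect of -0.12 ± 0.08. Likewise 0 of 11 voltage-gated calcium channel subunit genes passed, with Cacna1c, the main L-type pore subunit, at 0.16 ± 0.10 and Cacna1d at 0.05 ± 0.17. Of 21 beta-cell identity genes 0 passed, with Neurod1 at 0.27 ± 0.07, Slc2a2 at 0.52 ± 0.23, Ins2 at 0.04 ± 0.06 and Pdx1 at -0.06 ± 0.05. Among 19 cyclin and cell cycle entry genes 0 passed, and Gadd45a was lowest at -0.36 ± 0.07 (adjusted p = 0.217). Sterol biosynthesis genes (median 0.02), unfolded protein response genes and heat shock genes (median -0.03) had 0 that passed, with Sqle at 0.10, Dnajb9 at 0.31, Pdia4 at -0.29 and Bag3 at -0.24. In the glycolysis, hypoxia and thioredoxin list (0 of 15, median 0.17) Adm, a vasoactive peptide gene, read 6.75 with BayK8644 and 6.89 with the combination, against 5.58 with DMSO and 5.81 with exendin-4. Both arrays with BayK8644 exceeded both without it, as for 19.0% of all genes tested. The effect of 1.13 ± 0.31 did not pass (adjusted p = 0.950). Adm did pass in a fit on the 4 arrays of 30 min alone (adjusted p = 0.0049) and with a variance for each time (adjusted p = 0.0367). Ldha (0.75 ± 0.20) and Txnip (-0.48 ± 0.11, adjusted p = 0.419) did not pass either, nor did any of 7 control genes (median 0.02), 14 clock genes or 4 alpha, delta and PP cell markers (Sst at -0.01, Gcg at -0.04). None of 7 secreted ligand genes passed, with Bmp2 at 0.59 ± 0.11. Il4 stood between 4.22 and 4.29 on the 4 arrays. A p that misses the threshold does not show that these genes did not differ. Sik1, at 3.11 to 3.23, was not measured above the floor.

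The genes just outside the threshold and the largest falls are given as values. Nfkbiz, a nuclear regulator of NF-kappaB, had an effect of 0.77 ± 0.12 (adjusted p = 0.0553). Mical1 (0.84), C2cd4b (0.45) and Zc3h12c (0.70) followed Maff, with adjusted p between 0.0987 and 0.130, and Mical1 was under log2 4 on both arrays without BayK8644. On the other side of the threshold were Jun, Tob2 and Trib1, all with adjusted p = 0.0369. Among genes above log2 5 without BayK8644 the lowest effects were those of Rwdd3 (-0.61 ± 0.19), Hilpda (-0.60 ± 0.22), 5430405H02Rik (-0.59), 4921524J17Rik (-0.57 ± 0.11), Mrln (-0.55) and Asb4 (-0.55). The adjusted p of 4921524J17Rik was 0.219 and that of the other 5 was 1. It read 9.10 with BayK8644 and 9.17 with the combination, against 9.64 with DMSO and 9.78 with exendin-4.

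The 2 differences share no array and give the response without and with exendin-4. Unequal differences enlarge a gene's error in the fit, so the 23 were picked in part for being nearly equal. Over all 10610 genes the signs matched in 49.5%, with a Pearson correlation of 0.32 and a Spearman correlation of 0.04 across genes, which are not independent replicates. Both differences were above 0 for 28.3% of genes, and both arrays with BayK8644 exceeded both without it for 19.0% of genes and for 22 of the 23, a count to which the choice of the 23 contributes. In 17 of the 23 the difference was larger with exendin-4 present than without it. The median of the second difference minus the first was 0.17 over all 23 genes and -0.02 over all genes tested. The most unequal were Egr1, at 3.21 without and 2.54 with exendin-4, and Fosb, at 3.15 and 3.65. With 1 array per group this inequality has no error of its own and was not tested. DMSO was the lowest of the 4 arrays for 22 of the 23. The exendin-4 array stood above DMSO for the same number, by between -0.12 (Trib1) and 2.00 (Nr4a1) over the 23. These comparisons share arrays. The choice of the 23 for high values with BayK8644 contributes to DMSO being lowest, and only Nr4a1 was called for exendin-4. No share over all genes was computed for these counts or for the 17 above.

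**Figure D3:**
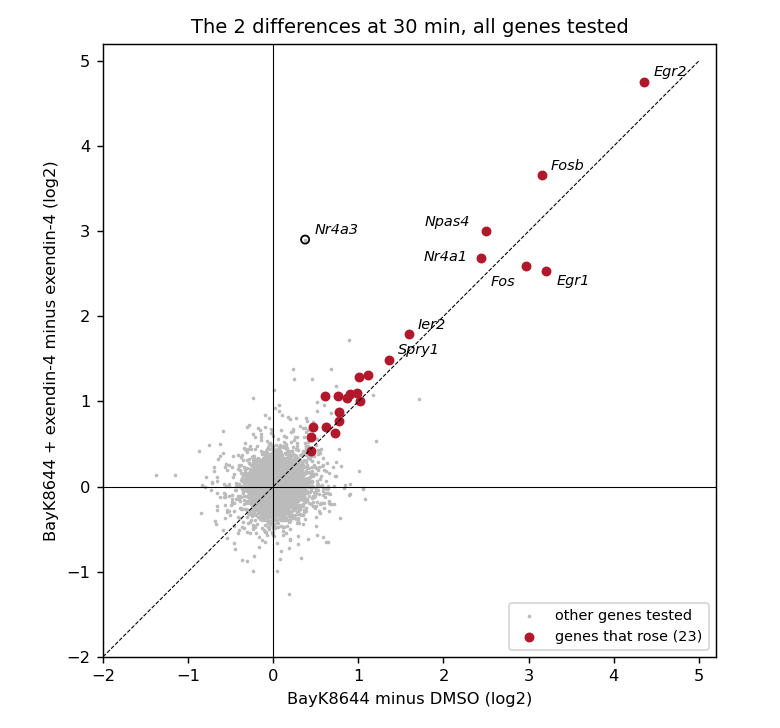
BayK8644 minus DMSO (horizontal axis) against combination minus exendin-4 (vertical axis), both in log2, for the 10610 genes tested, with the line of equality dashed. The 23 genes that rose lie near the line between 0.42 and 4.76, and Nr4a3 (open circle) lies far above it at 0.37 and 2.90. Unequal differences enlarge a gene's error, so the choice of the 23 favours genes near the line.

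The response at 30 min was then set against the mean BayK8644 effect at 2, 6 and 24 h in the same fit. Over all genes 86 differed (0.811%), 35 with a higher and 51 with a lower value at 30 min. Of the 23 genes 12 had a larger effect at 30 min, 3 a smaller one and 8 passed in neither direction. The 23 were picked for a high value at 30 min, so their differences lean upward by choice.

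Egr2 had the largest such difference, with an effect of 4.56 at 30 min and a mean of 0.16 later (difference 4.40 ± 0.18, adjusted p = 1.69e-05). Fos (2.78 and 0.62) and Egr1 (2.87 and 1.09) had smaller later effects and had risen at each later time. Dusp1 (1.01 and -0.07), Btg2 (1.0 and -0.12), Arc (0.91 and 0.05), Atf3 and Tob2 passed at none of the later times. Jun stood at 0.43 at 30 min and at -0.32 at 2 h, where it passed as lower (adjusted p = 0.0496). Spry1 (1.42 and 2.75), Dusp6 (0.77 and 1.58) and Dusp4 (0.66 and 1.96) had larger effects later, so that the MAP kinase phosphatase genes that rose did not share 1 time course. Npas4 (2.75 and 3.05), Gem (1.04 and 0.79), Trib1, Id1 and Tent5a passed in neither direction and had risen at all 4 times. In all, 12 of the 23 had risen at each of 2, 6 and 24 h. Of all genes 1.15, 1.71 and 2.99% had risen at these times taken singly (1.63, 2.48 and 5.11% in either direction). The share of all genes that had risen at every later time was not computed. Calls at all times use the same error for a gene, which favours the 23 later too. Among listed genes that did not pass at 30 min, Vgf, a secretory granule peptide, stood 1.07 ± 0.10 lower at 30 min than later and Il4 3.12 ± 0.28 lower (adjusted p = 0.00178 for both). The early minus late values were -1.07 and -3.12. DMSO levels of Fos lay between 9.66 and 9.72 at the 4 times and those of Egr1 between 10.19 and 10.56.

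**Figure D4:**
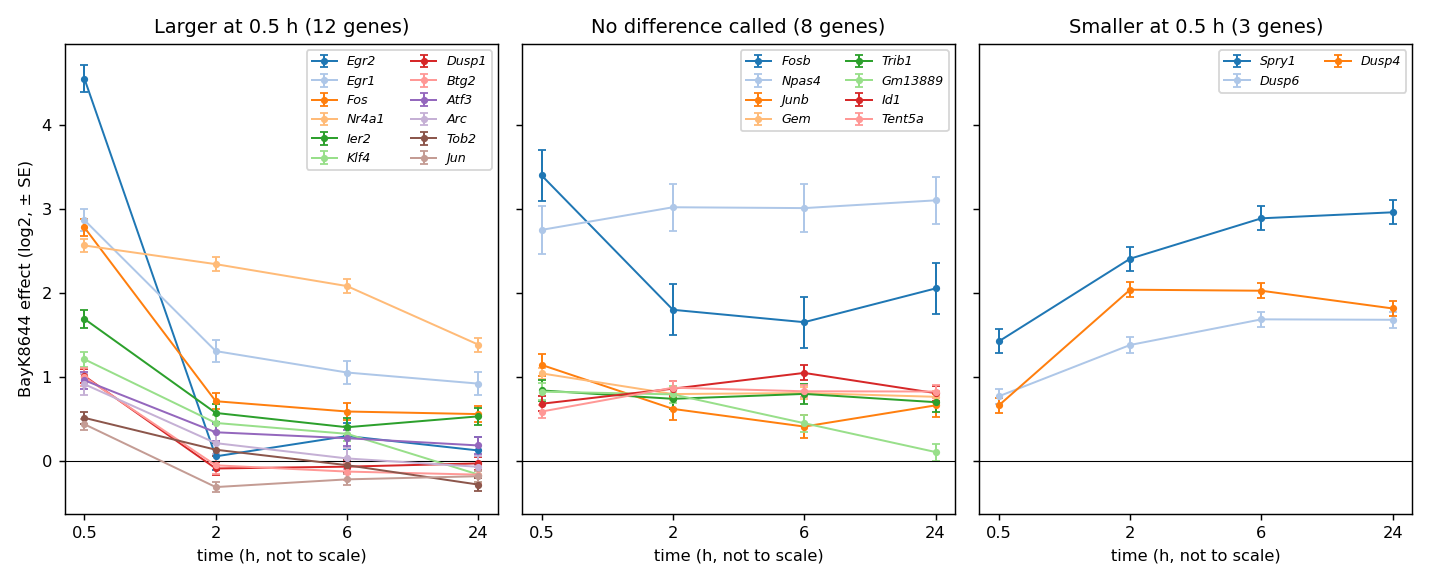
Effect of BayK8644 (log2, ± SE, vertical axis) at 0.5, 2, 6 and 24 h for the 23 genes, split by the test of 0.5 h against the later mean. Egr2 drops to 0.05 at 2 h, while Spry1 climbs to 2.96 at 24 h.

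The error in these tests was pooled over the 4 times, and the residual root mean square was 0.051 at 30 min against 0.092 at 24 h. Fitted on the 4 arrays of 30 min alone 36 genes passed, 34 higher and 2 lower, and with a variance for each time 45 passed, 40 higher and 5 lower. Of the genes given above as not passing, Adm, Fosl2, Maff, Nfkbiz and C2cd4b were higher and 4921524J17Rik lower in both of those fits. Ldha and Rgs4 passed as higher on the 4 arrays alone. With a variance for each time Bmp2, Irs2, Mical1, Socs3, Tob1 and Zc3h12c passed as higher, and Gadd45a and Txnip as lower. When the BayK8644 array of 30 min or its DMSO control was left out 9 genes passed, and when the combination array or its exendin-4 control was left out 6, Egr2, Egr1, Fos, Nr4a1, Ier2 and Gem passing each time.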

How the data were processed

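Affymetrix 1-colour arrays of R7T1 cells were used, 1 for each of 4 treatments at 4 times. The submitters' processing notes name GCRMA, with neither version nor genome build, and the deposited intensity values are linear. Precision is limited by how few arrays there were. Log2 of the deposited values was taken with no pseudocount. Of 45101 probe sets, 34945 had 1 symbol in the platform annotation, 932 had several and 9224 had none or were controls, and the last 2 classes were left out. Of the first, 34741 matched the RefSeq gene table (GRCm38.p6) by gene identifier. Probe sets reaching log2 4 (intensity 16) on at least 2 of 16 arrays were kept (19204), and the one with the highest mean stood for a gene. Of the 23 genes that rose 5 had several, which moved the same way.

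limma 3.58.1 in R 4.3.3 (lmFit, eBayes with an intensity trend) fitted time plus an effect of each agent at each time, with 4 residual degrees of freedom and the agents taken to add up. The Benjamini-Hochberg adjustment ran over all genes, with a threshold of 0.05. Simulated data for the 30 min comparison (10610 genes) had 200 genes changed, equal noise at each time and agents that added up. Of changes of 0.5 and 1 on the log2 scale, 70% and 96% were recovered, with 13 false calls. In the data 23 genes passed and residuals differed between times, so these shares need not hold there. The genes named were all that passed, the 5 next by adjusted p, the 6 largest falls above log2 5, 30 fixed genes, and up to 3 of the highest members and the lowest one of each list. Apart from cell-type markers and genes too dim to be measured, genes with opposite signs, such as Crem and Ccnd1, are not described. Members and lists were chosen with earlier results of these data known. Alternatives changed the filter, probe set choice, floor, pseudocount, normalization, variance model and arrays.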

Additional observations from a re-analysis of the deposited data

Results flagged for a closer look

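For 15 of the 23 genes that rose at 30 min, the BayK8644 effect at 30 min differed from its mean at 2, 6 and 24 h in a test of that difference within 1 limma fit. Values are effect at 30 min minus later mean on the log2 scale. It was positive for Egr2 (4.40), Fos (2.17), Egr1 (1.78), Ier2 (1.19), Btg2 (1.12), Dusp1 (1.08), Klf4 (1.01), Arc (0.86), Atf3 (0.70), Jun (0.68), Nr4a1 (0.63) and Tob2 (0.58). It was negative for Spry1 (-1.33), Dusp4 (-1.30) and Dusp6 (-0.81). Over all genes tested 86 differed (0.811%). The 23 were picked for a high value at 30 min, so positive differences are favoured by choice. Of the 15 differences, 3 passed under every alternative, those of Egr1, Egr2 and Fos. Each treatment and time had 1 array, so no array could be tested as standing apart from others of its group.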

How the results depend on the processing

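Alternatives to the 23 genes at 30 min and the 86 that differed between 30 min and later gave these counts. The 4 arrays of 30 min alone gave 36 genes, and 4921524J17Rik (-0.57, adjusted p = 0.0358) and Ska2 (-0.46, adjusted p = 0.0485) then fell. A variance for each time gave 45 and 247, and 4921524J17Rik, Ska2, Txnip, Gadd45a and Trim59 then fell. Testing every probe set gave 17 and 38, and leaving out the arrays of 6 h gave 17 and 31. Leaving out 1 array of 30 min at a time gave 6 to 9 genes, 9 without the DMSO or BayK8644 array and 6 without the exendin-4 or combination array, and 5 for early against late. Each effect is then 1 array minus 1 array. Of the 23, Egr1, Egr2, Fos, Gem, Ier2 and Nr4a1 passed under all 19 alternatives and none reversed. Fosb and Klf4 were lost only without the exendin-4 or combination array. The other 15 were lost with each array of 30 min left out. Some were lost under other settings too. Jun was lost under 11 of the 19 alternatives, Tob2 and Trib1 under 10, Arc under 8, Dusp4 and Tent5a under 7 and Id1 under 6. Each of these was lost when every probe set was tested, and all but Arc with eBayes without a trend. Quantile normalization lost Arc and Jun, and median centring lost Tob2 and Jun. For early against late, Egr1, Egr2 and Fos passed throughout. The causes were not tested. No analysis of paired replicates was possible, since each treatment and time had 1 array and the labels carry no replicate numbers. GCRMA values near the floor, as for Egr2 and Fosb without BayK8644, limit the size of a fold.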

Other observations

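A few genes had a far larger difference with exendin-4 present than without it, and were picked after their values were seen. Tac1, the gene of the neuropeptide substance P, differed by 1.14 between combination and exendin-4 and by 0.01 between BayK8644 and DMSO. Slc2a1, a glucose transporter gene, differed by 0.96 and 0.06 in the same order. With 1 array per group these inequalities were not tested.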
